A study of Mus musculus with 12 samples.

Results

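Matrix metalloproteinases and their tissue inhibitors, the TIMPs, were followed in mouse vein as a set of 10 genes chosen by name: 6 proteases (Mmp2, Mmp3, Mmp9, Mmp12, Mmp13 and Mmp14) and 4 inhibitors (Timp1, Timp2, Timp3 and Timp4). All 10 were found among the 43346 genes of the count table. Their RNA was measured in 12 mouse vein samples harvested at 7 days. After sham surgery the jugular vein was taken (n = 6), and after AVF-CKD surgery the vein side of the AVF (n = 6). AVF is read here as arteriovenous fistula, a surgical join of an artery to a vein, and CKD as chronic kidney disease; the labels use only the letters. They give no strain, age, genotype or kidney procedure, nor whether sham animals also had kidney disease, so surgery, vessel and disease model cannot be told apart. Nor do they state that each library is a mouse of its own, so every p-value here reflects the variation among these samples.

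Matrix metalloproteinases are zinc enzymes that cut collagens, elastin, fibronectin and proteoglycans, and most are made as inactive precursors whose propeptide has to be removed. TIMPs bind the active site of the enzymes in a complex of a single inhibitor with a single protease, which is why the ratio of protease to inhibitor is often followed. In veins exposed to arterial flow, these enzymes are known for their part in outward remodelling and in the movement of smooth muscle cells and leukocytes through the wall. Transcript levels do not give enzyme activity, which also depends on precursor activation.

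Library totals ranged from 38.65 to 60.14 M counts (M, 1e6 counts). Levels are given as CPM, counts per M of the TMM-scaled library total, and, where genes are compared with each other, as CPM per kilobase of the gene length in the deposited table. The whole fit (edgeR quasi-likelihood test, Benjamini-Hochberg adjustment over 18965 tested genes) called 0 genes at an adjusted p below 0.05. Summed CPM of fibroblast markers ranged from 24573 to 39217 in sham and from 21643 to 39831 in AVF-CKD, of endothelial markers from 1196 to 1659 and from 1020.3 to 1618, and of smooth muscle markers from 1813 to 2494 and from 1191 to 2295, so markers of each of these wall cell types were detected in every library. Tissue around the vessel varied between libraries: skeletal muscle markers summed to 469 to 13369 CPM in sham and to 881 to 12555 in AVF-CKD, and fat markers to 978 to 4309 and to 773 to 1577.

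Of the 10 genes, 3 proteases (Mmp13, Mmp12 and Mmp3) lie in a run of 10 metalloproteinase genes that spans 427.1 kb of chromosome 9 (GRCm38). RefSeq promoter windows (GRCm38.p6, 250 bases before to 50 bases after each start) were matched for 8 of the 10 genes (not Mmp2 and Mmp9), with a pair of starts for Mmp12. They are shown for these neighbouring proteases and for Timp1, which varied together with Mmp13 between libraries. Capitals mark TGANTCA (the consensus AP-1 motif, where N is any base), TATAAA (a core promoter element) and CCGCCC (the GC box). Each was searched on both strands, with no overlap between matches in these windows. Variants that differ from these letters were not searched, so a window without a mark may still hold one.
Mmp13, chr9:7272264-7272563, plus strand: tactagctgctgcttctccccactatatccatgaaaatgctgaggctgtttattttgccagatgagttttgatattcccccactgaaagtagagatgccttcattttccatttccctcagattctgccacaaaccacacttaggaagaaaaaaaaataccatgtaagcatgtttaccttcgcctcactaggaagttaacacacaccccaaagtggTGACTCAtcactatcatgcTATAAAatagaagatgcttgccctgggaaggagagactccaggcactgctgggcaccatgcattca
Mmp12, second start, chr9:7347124-7347423, plus strand: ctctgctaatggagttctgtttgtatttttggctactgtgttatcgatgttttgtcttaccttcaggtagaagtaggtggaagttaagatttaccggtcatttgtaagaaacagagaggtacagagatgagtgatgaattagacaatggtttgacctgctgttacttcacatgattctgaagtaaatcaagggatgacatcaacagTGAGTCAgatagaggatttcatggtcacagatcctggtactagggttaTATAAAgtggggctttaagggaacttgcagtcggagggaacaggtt
Mmp3, chr9:7445572-7445871, plus strand: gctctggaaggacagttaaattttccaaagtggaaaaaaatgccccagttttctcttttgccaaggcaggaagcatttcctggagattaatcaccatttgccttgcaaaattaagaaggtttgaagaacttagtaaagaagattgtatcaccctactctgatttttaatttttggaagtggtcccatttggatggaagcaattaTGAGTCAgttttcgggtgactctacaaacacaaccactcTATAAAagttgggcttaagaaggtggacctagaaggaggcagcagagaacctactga
Timp1, chrX:20869916-20870215, plus strand: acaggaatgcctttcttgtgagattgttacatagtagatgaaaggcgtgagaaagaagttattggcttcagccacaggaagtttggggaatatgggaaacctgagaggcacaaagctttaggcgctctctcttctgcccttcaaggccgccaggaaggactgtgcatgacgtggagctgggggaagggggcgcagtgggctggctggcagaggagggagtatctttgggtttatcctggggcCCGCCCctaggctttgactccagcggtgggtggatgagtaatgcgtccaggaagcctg

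The consensus AP-1 motif stood in 3 of the 9 windows of these 8 genes, and in 7.81% of all 32851 RefSeq promoter windows of the same length. Its position from the start was -35 in Mmp13, -44 at the second start of Mmp12 and -46 in Mmp3. The same 3 windows held TATAAA, at -16, +5 and -7, against 13.6% of all windows. The window of the first Mmp12 start held neither motif. These 3 genes are family members of the same run, so their windows are not independent of each other. CCGCCC was found in 4 of the 9 windows (Mmp14, Timp1, Timp2 and Timp3) and in 35.7% of all. An NF-kB-like motif was found in 0 of the 9 and in 1.63% of all. These are matches of letters in short windows and describe no binding.

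The set covered a wide range of transcript abundance. Per kilobase, Mmp2 (323 ± 85.7 CPM per kilobase, SD, n = 12 libraries) and Timp1 (301 ± 70.7) stood highest, followed by Timp2 (234 ± 44.1), Mmp14 (170.2 ± 36.2), Mmp3 (102 ± 48.4), Timp3 (63.6 ± 20.5), Mmp12 (46.0 ± 25.4), Mmp9 (9.89 ± 7.54), Mmp13 (2.89 ± 1.47) and Timp4 (1.26 ± 1.59). Neighbours in this order differed by more than their combined SD at 3 steps: from Timp2 to Mmp14, from Mmp14 to Mmp3 and from Mmp12 to Mmp9. Compared within libraries, Mmp9 lay above Mmp13 in 12 of 12, Mmp3 above Timp3 and Mmp13 above Timp4 in 11 each, Timp1 above Timp2 and Timp3 above Mmp12 in 9 each, and Mmp2 above Timp1 in 6, although the means of these neighbours differed by less than their combined SD. Mmp2 supplied 49.2% and Mmp14 26.3% of the summed protease CPM per kilobase, while Timp1 supplied 50.03%, Timp2 39.2% and Timp3 10.6% of the inhibitor sum. The table's length was below the exonic length in GENCODE M21 for Mmp14 (2597 against 5960 bases) and Timp4 (1416 against 5894 bases), so their per-kilobase levels depend on that choice. Of the exonic bases of Timp3 21.28% are overlapped by Syn3 on the opposite strand. The level and share of Timp3, and ratios to it, may depend on how those reads were counted.

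All 10 genes passed the filter on low counts, and 0 of 10 were called between AVF-CKD and sham, as were 0.0% of all genes tested. Unadjusted p was below 0.05 for 2 of 10 (Mmp9 and Timp1, both higher in AVF-CKD), against 9.34% of all genes in either direction and 5.26% in that direction. Fitted log2 fold changes were positive for 8 of 10, with a median of 0.15, against 49.1% and a median of -0.002 over all genes. The members were chosen with earlier results of these data known, so these shares describe the set and do not test it. The range of the sham libraries overlapped that of the AVF-CKD libraries for each of the 10 genes, and the groups did not overlap for 0.638% of all genes tested. Fewer cells of a type and less RNA per cell cannot be told apart in these bulk samples. The plot of CPM by library shows every value behind these counts.

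**Figure D1:**
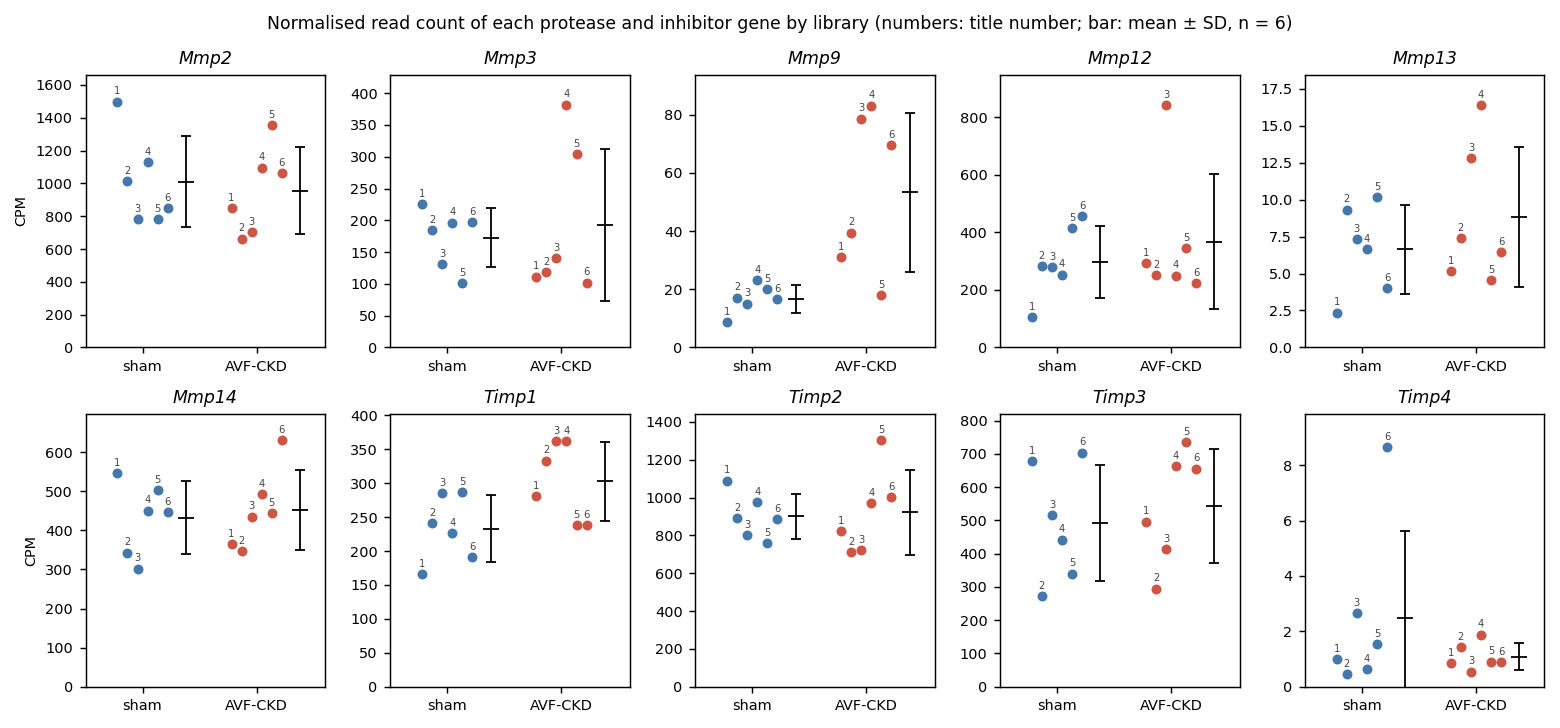
CPM (vertical axes, linear from 0) of each of the 10 genes in the 6 sham and 6 AVF-CKD libraries. Points are libraries with their title number, and bars are the mean ± SD (n = 6); the lower SD bar of Timp4 in sham ends at the axis. Mmp9 in 5 of 6 AVF-CKD libraries lies above the highest sham library at 23.1 CPM, while the groups of the other genes overlap more widely.

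Mmp9 (gelatinase B, ENSMUSG00000017737, chromosome 2, 164940780 to 164955850) cuts denatured and basement membrane collagen and is made by macrophages and carried in neutrophil granules. It had the largest fold change of the set and the smallest p. In sham libraries 1 to 6 it stood at 8.74, 17.1, 15.0, 23.1, 19.98 and 16.5 CPM, and in AVF-CKD libraries 1 to 6 at 30.9, 39.4, 78.6, 83.1, 18.1 and 69.5 CPM. Thus 5 of 6 AVF-CKD libraries lay above every sham library, and AVF-CKD library 5 lay within the sham range. At least 5 AVF-CKD libraries lay above every sham library for 1.85% of all genes tested. The means were 16.7 ± 4.86 CPM in sham and 53.3 ± 27.3 in AVF-CKD (SD, n = 6 each), a 3.18-fold difference (95% interval 1.88 to 5.38). On the log2 scale this was 1.67 ± 0.35 (SE), with an adjusted p of 0.368 by edgeR, so it did not pass the test over all genes.

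The call on Mmp9 depended on the tool. DESeq2 gave the same log2 fold change of 1.67 with an adjusted p of 0.00157, and called 1 of the 10 genes against 0.62% of the 17108 genes to which it gave an adjusted p. Over all alternatives the fold change of Mmp9 stayed between 1.50 and 1.87 on the log2 scale, with adjusted p from 0.00157 to 0.698.

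The relation of Mmp9 to markers of these leukocytes did not pass adjustment. Summed neutrophil markers ranged from 120.4 to 314 CPM in sham and from 123 to 411 in AVF-CKD; AVF-CKD library 3 was highest, and AVF-CKD library 5, where Mmp9 was low, was the lowest of its group. Of 11 neutrophil markers 8 were tested, 6 of them with a positive fold change (median 0.34), 0 were called, and Ly6g, Ngp and Camp were too low to test. After group means were subtracted, Mmp9 and the neutrophil sum had r = 0.78 and rho = 0.51 over 12 libraries (permutation within groups, p = 0.0064, adjusted p = 0.13 over 90 relations). Without the 2 libraries farthest from the median, r was 0.34, so the relation rests on those libraries. Summed macrophage markers ranged from 6134 to 12441 CPM in sham and from 6699 to 12283 in AVF-CKD. Of these 11 markers 8 were positive (median 0.20) and 0 were called by edgeR. Their relation to Mmp9 had r = 0.35 and rho = 0.19 (permutation p = 0.28, adjusted p = 0.61 over 90 relations), with r = 0.03 without the 2 farthest libraries. The part of either cell type in the Mmp9 difference was not tested.

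Mmp2 (gelatinase A, ENSMUSG00000031740, chromosome 8, 92827328 to 92853417) is the gelatinase of fibroblasts and smooth muscle cells, and Mmp14 with Timp2 activates it at the cell surface. It was the most abundant protease of the set and showed no difference beyond the spread. Sham libraries 1 to 6 held 1498, 1012, 782, 1132, 783 and 847 CPM, and AVF-CKD libraries 1 to 6 held 849.6, 663, 701, 1096, 1357 and 1063 CPM. The highest library of all was sham 1, and AVF-CKD libraries 1 to 3 were lower than AVF-CKD libraries 4 to 6. On the log2 scale the difference was -0.08 ± 0.21 (SE; 95% interval -0.53 to 0.37), with an adjusted p of 0.935.

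Mmp14 (membrane-type 1 metalloproteinase, ENSMUSG00000000957, chromosome 14, 54431604 to 54441258) sits in the plasma membrane, cuts collagen around the cell and activates the precursor of Mmp2. It measured 547, 343, 302, 450.2, 503.6 and 447 CPM in sham libraries 1 to 6 and 365, 346, 435, 492, 443 and 629.8 CPM in AVF-CKD libraries 1 to 6. The groups overlapped, with AVF-CKD library 6 highest and sham library 3 lowest. AVF-CKD differed from sham by 0.06 ± 0.17 on the log2 scale (95% interval -0.31 to 0.43), with an adjusted p of 0.937.

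Mmp3 (stromelysin, ENSMUSG00000043613, chromosome 9, 7445822 to 7455972) cuts proteoglycans and fibronectin and removes the propeptide of other metalloproteinases. Sham libraries 1 to 6 measured 225, 184, 131, 196, 101 and 197 CPM, and AVF-CKD libraries 1 to 6 measured 111, 119, 141, 382, 304 and 102 CPM. AVF-CKD libraries 4 and 5 lay above every sham library, and the other 4 lay low in the sham range. The log2 fold change was 0.16 ± 0.34 (95% interval -0.58 to 0.90), with an adjusted p of 0.913. Without AVF-CKD library 4 it was -0.16.

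Mmp12 (macrophage elastase, ENSMUSG00000049723, chromosome 9, 7344381 to 7369499) degrades elastin and is made chiefly by macrophages. It stood at 106, 282, 278, 253, 415 and 457 CPM in sham libraries 1 to 6 and at 293, 253, 841.5, 249.9, 345 and 225 CPM in AVF-CKD libraries 1 to 6. A single library, AVF-CKD 3, lay far above the rest, and the other 5 of its group lay within the sham range. The log2 fold change was 0.30 ± 0.38 (95% interval -0.51 to 1.11), with an adjusted p of 0.841, and without AVF-CKD library 3 it was -0.13. Within title numbers 1 to 3 it was 1.06, and within 4 to 6 it was -0.46. Summed lipid-associated and osteoclast-like macrophage markers, a list led by Spp1, were also highest in AVF-CKD library 3, at 3561 CPM, against 1465 to 2242 in sham. Their relation to Mmp12 had r = 0.78 and rho = 0.63 (permutation p = 0.0079, adjusted p = 0.13 over 90 relations), and r was 0.40 without the 2 farthest libraries. Their part in the Mmp12 values was not tested.

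Mmp13 (collagenase 3, ENSMUSG00000050578, chromosome 9, 7272514 to 7283333) makes the first cut in fibrillar collagen and is the main interstitial collagenase of the mouse. Its level was low, with 141 to 767 counts per library. It measured 2.36, 9.32, 7.32, 6.67, 10.2 and 4.01 CPM in sham libraries 1 to 6 and 5.18, 7.42, 12.8, 16.4, 4.56 and 6.42 CPM in AVF-CKD libraries 1 to 6. AVF-CKD libraries 3 and 4 lay above every sham library and sham library 1 lay below all others. AVF-CKD exceeded sham by 0.41 ± 0.38 on the log2 scale (95% interval -0.42 to 1.23), with an adjusted p of 0.783.

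Timp1 (ENSMUSG00000001131, chromosome X, 20870166 to 20874735) is the inducible inhibitor, which also binds the precursor of Mmp9. In sham libraries 1 to 6 it stood at 165.5, 241.5, 285, 227, 287 and 191 CPM, and in AVF-CKD libraries 1 to 6 at 280.5, 333, 362.5, 362, 238.5 and 238 CPM. All 6 AVF-CKD libraries lay above the sham median, as for 7.11% of all genes tested, and 3 of them (2, 3 and 4) above every sham library. The means were 233 ± 49.0 and 303 ± 58.0 CPM (SD, n = 6 each). The log2 fold change was 0.38 ± 0.16 (95% interval 0.04 to 0.72), with an adjusted p of 0.502, so Timp1 did not pass the test.

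Timp2 (ENSMUSG00000017466, chromosome 11, 118301069 to 118355740) is the broadly made inhibitor that takes part in Mmp2 activation. It measured 1090.2, 893, 803, 977, 758 and 886 CPM in sham libraries 1 to 6 and 823, 710.6, 721, 969, 1306 and 1005 CPM in AVF-CKD libraries 1 to 6. As for Mmp2, AVF-CKD libraries 1 to 3 were lower than 4 to 6, and the groups overlapped. The groups differed by 0.03 ± 0.15 on the log2 scale (95% interval -0.30 to 0.36), with an adjusted p of 0.966.

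Timp3 (ENSMUSG00000020044, chromosome 10, 86300372 to 86349506) is held in the extracellular matrix and also inhibits proteases of the Adam and Adamts families. Values were 678, 273.5, 517, 442, 340.3 and 704 CPM in sham libraries 1 to 6 and 496, 295, 413, 662, 736 and 656 CPM in AVF-CKD libraries 1 to 6. Each group held low and high libraries, and the log2 fold change was 0.14 ± 0.26 (95% interval -0.43 to 0.71), with an adjusted p of 0.899. Of its exonic bases 21.28% are overlapped by Syn3, a neuronal gene on the opposite strand. Syn3 measured 255 CPM on average, and its centred log2 CPM had r = 0.98 with Timp3. The strand setting of the read counting is not given in the sources used here, so their reads may be mixed there.

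Timp4 (ENSMUSG00000030317, chromosome 6, 115245616 to 115251849) is the inhibitor of most restricted expression, known from heart and fat. It was the least abundant of the set, with 25 to 417 counts per library. Sham libraries 1 to 6 held 1.01, 0.452, 2.65, 0.626, 1.54 and 8.66 CPM, and AVF-CKD libraries 1 to 6 held 0.864, 1.42, 0.550, 1.88, 0.907 and 0.893 CPM. Apart from sham library 6 the groups covered about the same range. The log2 fold change was -1.20 ± 0.64 (95% interval -2.58 to 0.19), with an adjusted p of 0.584, and it was -0.21 without sham library 6. That library also had the highest sum of fat markers, 4309 CPM, and of gland and epithelium markers, 94.4 CPM. Negative fold changes were seen for 8 of 8 tested fat markers (median -1.05, 0 called by edgeR). The part of carried-along fat in the Timp4 values was not tested.

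**Figure D2:**
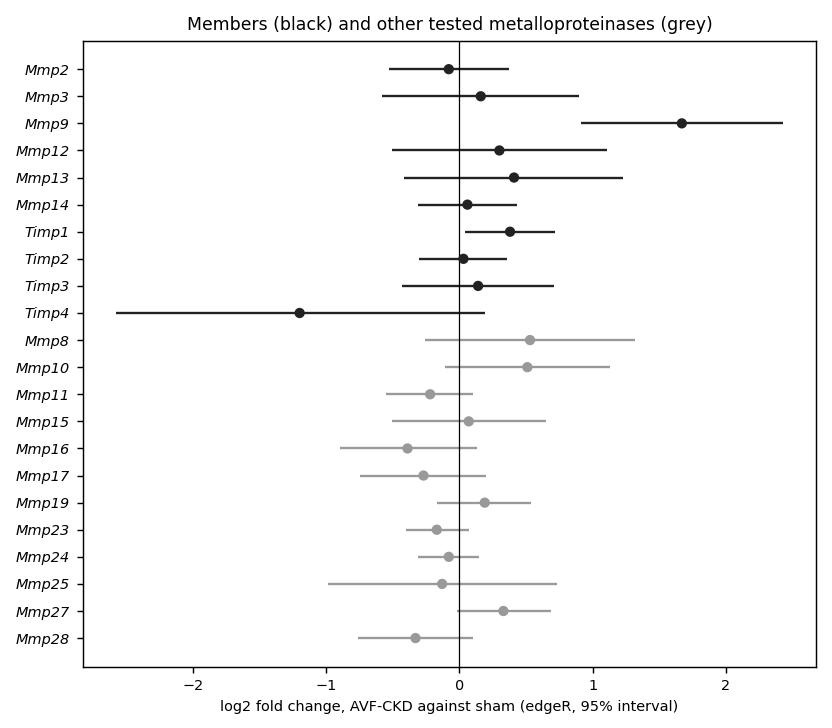
Log2 fold change of AVF-CKD against sham (horizontal axis, edgeR) with its 95% interval for the 10 genes in black and the 12 other metalloproteinases that were tested in grey. The intervals of Mmp9 (0.91 to 2.43) and Timp1 (0.04 to 0.72) lie above 0 before adjustment, and all others include 0.

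The plot of fold changes sets the 10 genes beside the rest of the family. Of 17 other metalloproteinase genes 12 were tested, 5 with positive fold changes, with a median of -0.10 and 0 called. The neutrophil collagenase Mmp8 measured 2.55 ± 0.996 CPM in sham and 3.67 ± 1.65 in AVF-CKD (SD, n = 6 each), a log2 fold change of 0.53 ± 0.37 with an adjusted p of 0.691. Stromelysin 2, Mmp10, differed by 0.51 ± 0.29 (adjusted p = 0.607) and Mmp27 by 0.33 ± 0.16 (adjusted p = 0.556). The most abundant of these genes was Mmp19, at 209 ± 41.9 CPM in sham and 238 ± 52.1 in AVF-CKD, with a log2 fold change of 0.19 ± 0.16 (adjusted p = 0.759). Mmp23 followed at 133 ± 25.8 and 118 ± 4.85 CPM (-0.17 ± 0.11, adjusted p = 0.662). Membrane-type members were close to 0 or below it: Mmp15 0.07 ± 0.27, Mmp16 -0.39 ± 0.24, Mmp17 -0.27 ± 0.22, Mmp24 -0.08 ± 0.11 and Mmp25 -0.13 ± 0.40 on the log2 scale, with adjusted p of 0.646 or more. Mmp11, stromelysin 3, differed by -0.22 ± 0.15 and Mmp28 by -0.33 ± 0.20. Mmp1a, Mmp1b, Mmp7, Mmp20 and Mmp21 had at most 9 counts in any library and were not tested.

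Along the chromosome 9 run, neighbouring genes differed widely in level. Mmp3 averaged 102 CPM per kilobase and Mmp12 46.0, whereas Mmp13 averaged 2.89, Mmp27 2.12, Mmp8 1.27 and Mmp10 0.595. Mmp1b, Mmp1a, Mmp20 and Mmp7, which lie between or beyond them, had at most 9 counts in any library. Between libraries, Mmp3 and Mmp12 had r = -0.20 after group means were subtracted (permutation p = 0.61, adjusted p = 0.78 over 45 pairs), Mmp3 and Mmp13 had r = -0.05 (p = 0.89, adjusted p = 0.95), and Mmp12 and Mmp13 had r = 0.47 (p = 0.14, adjusted p = 0.31).

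Protease to inhibitor ratios were taken within each library from counts per kilobase and tested on log2 CPM with limma, over all 18964 genes against the same inhibitor. Of the 24 ratios of a protease to a TIMP 0 were called, and unadjusted p was below 0.05 for 4, all of them with Mmp9 as the protease and higher in AVF-CKD. Such a p in that direction was found for 0.169% of all genes against Timp1, 1.07% against Timp2, 0.316% against Timp3 and 0.533% against Timp4. The groups overlapped in each of the 24 ratios. The share of all genes called against the same inhibitor was 0.0105% for Timp1, 0.0% for Timp2, 0.0105% for Timp3 and 0.0% for Timp4.

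Mmp9 to Timp1 was the ratio with the smallest p. It was 0.0133, 0.0178, 0.0132, 0.0256, 0.0175 and 0.0216 in sham libraries 1 to 6, and 0.0277, 0.0297, 0.0544, 0.0576, 0.0190 and 0.0732 in AVF-CKD libraries 1 to 6. As for Mmp9 alone, 5 of 6 AVF-CKD libraries lay above every sham library and library 5 did not. The log2 difference was 1.15 ± 0.28 (SE; 95% interval 0.55 to 1.74), with an adjusted p of 0.145. Against Timp1, whose own mean was 233 CPM in sham and 303 in AVF-CKD, 5.24% of all genes had a positive difference.

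The other ratios of Mmp9 had the same direction with wider errors. Mmp9 to Timp2 differed by 1.52 ± 0.41 on the log2 scale (adjusted p = 1.0), Mmp9 to Timp3 by 1.37 ± 0.39 (adjusted p = 0.789) and Mmp9 to Timp4 by 2.07 ± 0.71 (adjusted p = 0.731). The call on Mmp9 to Timp3 depended on a library: without AVF-CKD library 5 it was 1.75 with an adjusted p of 0.00344 by limma. That library had the lowest Mmp9 of its group, at 18.1 CPM. The share of all genes called against Timp3 without it was not counted. Within title numbers 1 to 3 Mmp9 to Timp3 differed by 2.02, and within 4 to 6 by 0.73. By share, Mmp9 made up 0.766% ± 0.249 of the summed protease CPM per kilobase in sham and 2.31% ± 1.05 in AVF-CKD (SD, n = 6 each), so it remained a small part of the set's transcripts in both.

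The ratio of Mmp2 to Timp2 was the narrowest of all. It was 1.76, 1.45, 1.25, 1.49, 1.32 and 1.23 in sham libraries 1 to 6 and 1.32, 1.197, 1.25, 1.45, 1.33 and 1.36 in AVF-CKD libraries 1 to 6. The highest library was 1.47 times the lowest, a coefficient of variation of 11.4% over 12 libraries, and the log2 difference was -0.10 ± 0.14 (95% interval -0.40 to 0.21, adjusted p = 1.0). For Mmp14 to Timp2 the sham libraries ranged from 0.565 to 0.996 and the AVF-CKD libraries from 0.509 to 0.940, with a log2 difference of 0.05 ± 0.19 (95% interval -0.34 to 0.45).

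Against Timp1, the remaining proteases had log2 differences near or below 0: Mmp2 -0.47 ± 0.30, Mmp14 -0.32 ± 0.26, Mmp3 -0.38 ± 0.35, Mmp12 -0.12 ± 0.30 and Mmp13 0.02 ± 0.27, with adjusted p from 0.243 to 0.957. Mmp2 to Timp1 was 2.65 in sham library 1 and 0.799 to 1.46 in the other sham libraries, against 0.565 to 1.66 in AVF-CKD. Mmp12 to Timp1 ranged from 0.0788 to 0.293 in sham and from 0.0847 to 0.285 in AVF-CKD. Within title numbers 1 to 3 the calls against Timp1 differed: Mmp2 was -1.05 (adjusted p = 0.0187 by limma), Mmp3 -1.04 (0.0178) and Mmp9 1.28 (0.00445). Within numbers 4 to 6 Mmp2 was 0.12 and Mmp3 0.29. Timp1 alone differed by 0.5 within numbers 1 to 3. The share of all genes called against Timp1 in that subset of 3 libraries per group was not counted, so these calls have no background. Over all 12 libraries 5.24% of all genes had a positive difference against Timp1. A negative difference is thus not particular to Mmp2 and Mmp3. The labels do not say what the title numbers stand for.

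The sum of the 6 proteases over the sum of the 4 inhibitors, per kilobase, is a description without a test. It was 1.54, 1.15, 0.830, 1.25, 1.03 and 1.18 in sham libraries 1 to 6 and 0.906, 0.784, 0.962, 1.12, 1.21 and 1.16 in AVF-CKD libraries 1 to 6. The groups overlapped, with means of 1.16 ± 0.236 and 1.02 ± 0.165 (SD, n = 6 each). Their mean log2 difference of -0.17 was smaller than the pooled SD of 0.27. Without Timp3, whose exons overlap Syn3, it was -0.19 with a pooled SD of 0.31. The sum is carried by Mmp2, Mmp14, Timp1 and Timp2, and the plot of ratios by library sets it beside Mmp9 to Timp1.

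**Figure D3:**
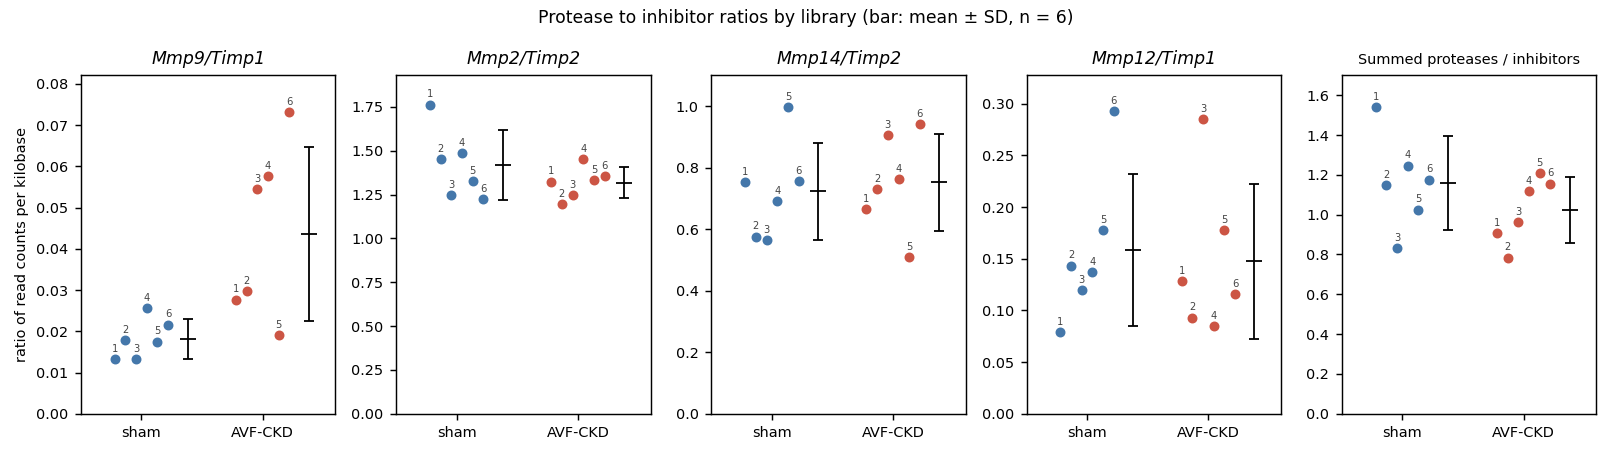
Ratios of counts per kilobase (vertical axes, linear from 0) in the 6 sham and 6 AVF-CKD libraries, with title numbers at the points and the mean ± SD (n = 6) as bars. Mmp9 to Timp1 reaches 0.0732 in AVF-CKD against at most 0.0256 in sham, Mmp2 to Timp2 stays between 1.197 and 1.76, and the summed ratio stays between 0.784 and 1.54.

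Some members varied together from library to library, after each group's mean was subtracted from log2 CPM. Of 45 pairs, 3 had an adjusted p below 0.05 by Pearson's r (100000 permutations within groups, two-sided, Benjamini-Hochberg over 45 pairs), and 2 of them also by Spearman's rho. These pairs share libraries, and the genes are not independent of each other.

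Mmp2 and Timp2, a protease and the inhibitor that helps activate it, had r = 0.95 and rho = 0.95. The permutation p for r was 1e-05, the smallest that 100000 resamples can give (adjusted p = 0.00045), and r was 0.95 without the 2 farthest libraries, 0.95 within sham and 0.98 within AVF-CKD. Among 18964 other genes Timp2 ranked 9 by r with Mmp2, and Mmp2 ranked 14 for Timp2. Both followed the summed fibroblast markers: Mmp2 with r = 0.91 and rho = 0.91 (permutation p = 0.00027, adjusted p = 0.024 over 90 relations; r = 0.96 without the 2 farthest), and Timp2 with r = 0.89 and rho = 0.94 (permutation p = 0.00079, adjusted p = 0.036; r = 0.93 without the 2 farthest). The share of fibroblasts in this pair's relation was not tested.

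Mmp13 and Timp1 had r = 0.89 and rho = 0.85 (permutation p = 0.00051 for r, adjusted p = 0.011), with r = 0.84 without the 2 farthest libraries, 0.92 within sham and 0.85 within AVF-CKD. Timp1 ranked 7 among all genes for Mmp13, and Mmp13 ranked 8 for Timp1. Mmp9 and Mmp13 had r = 0.77 and rho = 0.78 (permutation p = 0.0029 for r, adjusted p = 0.043; adjusted p = 0.067 for rho), and r was 0.62 without the 2 farthest libraries. Mmp13 ranked 79 among all genes for Mmp9. Timp1 ran against Timp2, with r = -0.72 and rho = -0.76 (permutation p = 0.0096 for r, adjusted p = 0.11), a relation that did not pass the adjustment. The matrix of correlations holds Mmp2, Timp2, Timp3, Mmp3 and Mmp14 with positive values among themselves, and Mmp9, Mmp13, Timp1 and Mmp12 likewise. This grouping was read from the matrix and not tested, and only 3 of the 45 pairs passed adjustment. Mmp3 and Mmp14 had r = 0.15, and Mmp9 and Mmp12 had r = 0.35 and rho = 0.10. Without the 2 farthest libraries Mmp12 had r = -0.05 with Mmp13 and 0.02 with Timp1.

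**Figure D4:**
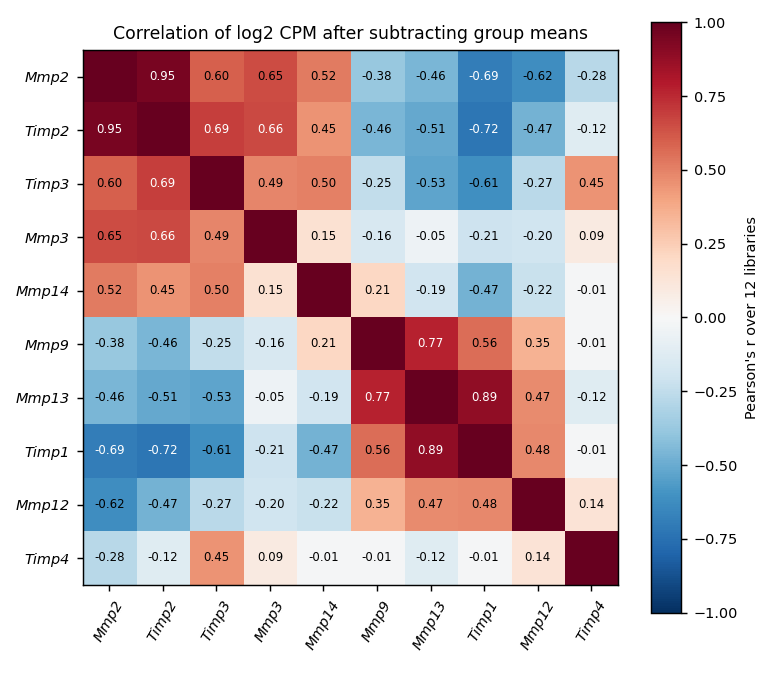
Pearson's r of log2 CPM between each pair of the 10 genes over 12 libraries after subtraction of group means, on a colour scale from -1 to 1, with r printed in each cell. Mmp2 with Timp2 (0.95) and Mmp13 with Timp1 (0.89) are the highest values off the diagonal.

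**Figure D5:**
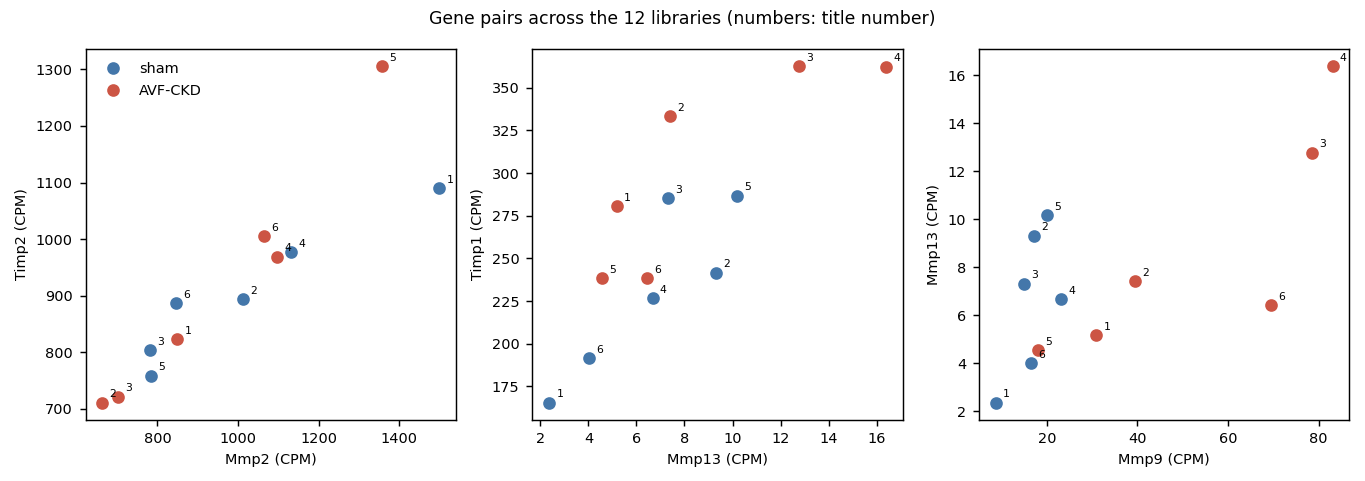
CPM of Timp2 against Mmp2, Timp1 against Mmp13, and Mmp13 against Mmp9 in each of the 12 libraries (linear axes that do not start at 0), coloured by group with title numbers. In the first panel the points of both groups lie in a single rising band from 663 to 1498 CPM of Mmp2; in the last, AVF-CKD libraries 3 and 4 are high for both genes.

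The genes whose centred log2 CPM was most like each member's, over 12 libraries, are given as a description. They were picked for the highest r among all named genes tested. High values are therefore due in part to that selection, and none was tested. For Mmp2 they were Aebp1 (r = 0.97, rho = 0.94), Smoc2 (0.96, 0.97) and Fap (0.96, 0.95), the last of which is on the fibroblast list. For Timp2 they were Iqce (r = 0.97, rho = 0.97), Rufy2 (0.96, 0.93) and Gxylt2 (0.96, 0.92). Mmp14 was nearest to Cacng7 (r = 0.95, rho = 0.94), Hsp90b1 (0.94, 0.85), a chaperone of the endoplasmic reticulum, and Kif26b (0.93, 0.92).

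Mmp9 was nearest to Ell2 (r = 0.93, rho = 0.90), Piwil2 (0.92, 0.81) and Slc7a11 (0.90, 0.85), the cystine transporter. For Mmp12 they were Itgax (r = 0.94, rho = 0.97), the integrin of dendritic cells and some macrophages, Met (0.93, 0.83) and Vsig8 (0.93, 0.83). For Mmp13 they were Fgd3 (r = 0.90, rho = 0.87), the chemokine receptor Ccr1 (0.90, 0.89) and Slc37a2 (0.89, 0.90). Mmp3 was nearest to Aldh3a2 (r = 0.93, rho = 0.90), Xpnpep2 (0.91, 0.89) and Fam102a (0.91, 0.87).

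Timp1 was nearest to Nipsnap3b (r = 0.93, rho = 0.91), Dph5 (0.93, 0.90) and Cd3eap (0.92, 0.85). After Syn3, Timp3 was nearest to Trpm3 (r = 0.94, rho = 0.90) and Apcdd1 (0.93, 0.95). For Timp4 they were Col17a1 (r = 0.89, rho = 0.75), Chst1 (0.89, 0.85) and Ces1d (0.89, 0.82), with Timp4 highest in sham library 6.

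Genes that act on the same proteases were counted from lists. Of 18 activators and plasmin system genes 14 were tested, 7 with positive fold changes (median -0.01), and 0 were called. Serpinb2, an inhibitor of urokinase, had the smallest p of that list. It ranged from 3.03 to 23.8 CPM in sham and from 25.4 to 67.6 in AVF-CKD. These groups did not overlap, as for 0.638% of all genes tested. Its log2 fold change was 1.21 ± 0.41, with an adjusted p of 0.431 by edgeR. Within title numbers 1 to 3 that fold change was 1.93 and within 4 to 6 it was 0.54. Bsg, a surface protein that induces metalloproteinases, was the most abundant (-0.18 ± 0.09, adjusted p = 0.554). Of 12 other inhibitors, binders and clearance genes 10 were tested, 6 positive (median 0.06), 0 called. Lcn2, which forms a complex with Mmp9, had the smallest p there, at 13.5 ± 6.18 CPM in sham and 32.4 ± 20.6 in AVF-CKD (SD, n = 6 each; log2 fold change 1.26 ± 0.38, adjusted p = 0.401). Serping1 was the most abundant (0.05 ± 0.20).

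Of the 17 substrate genes all were tested, 13 positive (median 0.08), 0 called: Col3a1, the most abundant, differed by 0.08 ± 0.19 and Fn1, with the smallest p, by 0.28 ± 0.17 (adjusted p = 0.649). Of 15 transcription factors known at metalloproteinase genes all were tested, 10 positive (median 0.05), 0 called, with Junb at -0.14 ± 0.16 and Fos at -0.64 ± 0.35 (adjusted p = 0.597).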

How the data were processed

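Per the labels' protocols, vein RNA of 12 mouse samples was made into TruSeq libraries and sequenced. The authors deposited a table with a read count and an RPKM value of each gene in each library, and a gene length. GRCm38, TopHat2 2.1.0, featureCounts and edgeR appear in the submitters' processing notes; which annotation release, strand setting and filters were used is not given in the sources used here. Whole numbers, the deposited counts sum to 38.65 to 60.14 M per library. In the deposited RPKM values the library total is 1.15 to 1.19 times that sum, and they were not tested. The deposited length was used for levels per kilobase. GENCODE M21 held 42462 of the 43346 identifiers. Columns of samples outside the 12 libraries numbered 0.

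Genes were kept by filterByExpr, TMM scaling (factors 0.97 to 1.031) was applied, and groups were compared with the quasi-likelihood test of edgeR 4.0.16 in R 4.3.3, called below a Benjamini-Hochberg adjusted p of 0.05 over 18965 genes. The biological coefficient of variation was 24.2%. Ratios were tested with limma 3.58.1 (trend) on log2 CPM with a prior count of 2, each gene minus the inhibitor, adjusted over all genes for that inhibitor. Correlations used the same log2 CPM with group means subtracted and 100000 permutations within groups. Each of the 66 pairs of libraries differed by more than sampling noise (chi-square over its degrees of freedom, 47.75 to 211.97). Alternatives were other scalings and filters, DESeq2 1.42.0, limma voom with sample weights, the title number as a block, title numbers 1 to 3 against 4 to 6, other prior counts, and leaving out each library.

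The members and lists were chosen with earlier results of these data known. Named genes were the 10 members, the most abundant gene and that with the smallest p in each list, every other metalloproteinase tested, and the 3 genes most like each member by r. Models with no proper name and immunoglobulin or T-cell receptor segments were left out of the last.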

Additional observations from a re-analysis of the deposited data

Results flagged for a closer look

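In each case below the named library was separated from the other 5 of its group by more than Dixon's 95% critical value for 6 samples (0.625). Of 94 groups checked 9 were past it. About 1 in 20 would pass by chance if groups were independent and normally distributed. The groups here share libraries and genes, so 9 of 94 cannot be set against that rate.

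Mmp12 was 841.5 CPM in AVF-CKD library 3 and 225 to 345 CPM in the other AVF-CKD libraries. The same library stood apart in the ratios of Mmp12 to Timp2 (0.628 against 0.120 to 0.191), Mmp12 to Timp3 (2.29 against 0.386 to 0.965) and Mmp12 to Timp4 (299.2 against 26.0 to 74.5), and of Mmp13 to Timp4 (12.3 against 2.66 to 4.61). It also held 337 CPM of Mmp19, a metalloproteinase outside the set, against 189 to 236 CPM in the others of its group. Of the exonic bases of Mmp19 28.33% are overlapped by other gene models.

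Timp4 was 8.66 CPM in sham library 6 and 0.452 to 2.65 CPM in the other sham libraries. The ratio of Mmp2 to Timp1 was 2.65 in sham library 1 and 0.799 to 1.46 in the other sham libraries. The ratio of Mmp2 to Timp3 was 6.04 in AVF-CKD library 2 and 4.35 to 4.94 in the others of its group, while the sham libraries ranged from 3.23 to 9.92.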

How the results depend on the processing

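Counts of calls moved with few choices. DESeq2 called 106 genes in all and 1 member (Mmp9), and leaving out a library gave 0 to 1 genes (1 without AVF-CKD library 3) and 0 members. Over all libraries the 24 ratios gave 0 calls. With the title number as a replicate block there was 1 call (Mmp9 to Timp3, 1.37, adjusted p = 0.00281 by limma). There were 3 within title numbers 1 to 3 (given in the report), a fit of 3 libraries per group. Leaving out a library gave 0 to 1 (1 without AVF-CKD library 5). The share of all genes called in each of these alternative ratio fits was not counted. Samples of the same number had correlations of deviations from -0.109 to 0.277, and only number 3 correlated best with its own number. This check cannot show whether the numbers stand for something that samples share, such as a batch. Under the block 0 members were called and Mmp9 was 1.56 (adjusted p = 0.418). The mean log2 difference of the summed ratio was -0.37 to 0.02 over its alternatives, against -0.17 over all libraries with a pooled SD of 0.27; the -0.37, within title numbers 1 to 3, was larger than that SD. Timp4 could not be fitted with at least 1 CPM in at least 6 libraries. Of 229 alternative values of the members 209 kept direction and side of the threshold, 1 was newly called and 19 changed sign; for the ratios it was 431, 5 and 44 of 480.

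Signs changed as follows (log2 scale); the cause was not tested. Within title numbers 1 to 3: Mmp3 -0.55, Mmp14 -0.06, Timp2 -0.31, Timp3 -0.29, Serping1 -0.31, Col3a1 -0.33, Acta1 1.33, Pvalb 0.71, and the ratios Mmp2 to Timp4 -0.25, Mmp3 to Timp4 -0.24, Mmp12 to Timp1 0.44 and Mmp14 to Timp3 0.21. Within numbers 4 to 6: Mmp2 0.35, Mmp12 -0.46, Mmp15 -0.12, Mmp17 0.04, Mmp25 0.54, Junb 0.01, S100a9 -0.83, Dcn 0.09, and the ratios Mmp2 to Timp1 0.12, Mmp2 to Timp2 0.04, Mmp3 to Timp1 0.29, Mmp3 to Timp2 0.21, Mmp3 to Timp3 0.00, Mmp12 to Timp2 -0.75, Mmp12 to Timp3 -0.97, Mmp13 to Timp2 -0.05, Mmp13 to Timp3 -0.26 and Mmp14 to Timp2 -0.17. With voom: Mmp3 -0.03, Timp2 -0.04, Mmp25 0.12 and Acta1 0.09. With the replicate block: Mmp3 -0.01, Mmp25 0.11 and Acta1 0.04. With the numbers as a term Mmp25 was 0.01. With the inhibitor as an edgeR offset, Mmp2 to Timp4 was -0.08 and Mmp3 to Timp2 0.11. With no change of sign, Timp4 was -0.39 with voom, -0.57 with the replicate block and -0.53 within numbers 1 to 3.

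Leaving out a library, these crossed 0: Mmp2 from -0.21 to 0.07, Mmp3 -0.16 to 0.29, Mmp12 -0.13 to 0.46, Mmp14 -0.05 to 0.14, Timp2 -0.09 to 0.10, Mmp15 -0.08 to 0.23, Mmp25 -0.34 to 0.23, Serping1 -0.05 to 0.14, S100a9 -0.19 to 0.26 and Acta1 -0.69 to 0.35. Of the ratios, Mmp2 to Timp4 ran from -0.09 to 0.79, Mmp3 to Timp2 -0.22 to 0.17, Mmp3 to Timp3 -0.31 to 0.06, Mmp12 to Timp1 -0.33 to 0.08, Mmp12 to Timp2 -0.08 to 0.43, Mmp12 to Timp3 -0.27 to 0.32, Mmp13 to Timp1 -0.15 to 0.13, Mmp13 to Timp3 -0.12 to 0.53, Mmp14 to Timp2 -0.02 to 0.16 and Mmp14 to Timp3 -0.22 to 0.05.

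Depth limits Timp4 most, with as few as 25 counts in a library. Counting intervals would cover counting error only and would leave out the spread between libraries.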

Other observations

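By edgeR, marker lists of the cells that could carry these proteases held 0 called genes each, so the following are values. Of 11 macrophage markers 8 had positive fold changes; Lyz2, the most abundant, differed by 0.20 ± 0.23 on the log2 scale (SE), and Mertk, a receptor for the uptake of dying cells with the smallest p, by 0.48 ± 0.11 (38.7 ± 6.42 CPM in sham, 54.2 ± 6.94 in AVF-CKD, SD, n = 6 each; adjusted p = 0.39 by edgeR). DESeq2 gave Mertk an adjusted p of 0.0246, and called 0.62% of the genes to which it gave an adjusted p. Of 11 lipid-associated and osteoclast-like markers 9 were tested and 5 were positive (median 0.15). Spp1, osteopontin, stood at 361 ± 119 CPM in sham and 812 ± 503 in AVF-CKD, a difference of 1.17 ± 0.38 (adjusted p = 0.422). For title numbers 1 to 3 alone Spp1 differed by 1.97, and for 4 to 6 alone by 0.14. Among neutrophil markers S100a9 differed by 0.09 ± 0.33 and Csf3r by 0.46 ± 0.20 (adjusted p = 0.503).

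Markers of the vessel wall had mostly negative fold changes. Of 9 fibroblast markers 3 were positive (median -0.23), with Dcn at -0.29 ± 0.19 and Postn at -0.45 ± 0.17 (adjusted p = 0.489). Of 7 smooth muscle markers 2 were positive (median -0.31), with Acta2 at -0.38 ± 0.18 and Cnn1 at -0.71 ± 0.23 (adjusted p = 0.42). Of 8 endothelial markers 1 was positive (median -0.16), with Pecam1 at -0.14 ± 0.14 and Tek at -0.32 ± 0.13 (adjusted p = 0.498).

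Tissues beside the vessel varied most. Of 8 skeletal muscle markers 1 was positive (median -0.25), with Acta1 at -0.10 ± 0.68 and Pvalb at -0.41 ± 0.76. Of the fat markers, Cfd differed by -0.88 ± 0.34 and Retn by -1.53 ± 0.40 (adjusted p = 0.39 by edgeR and 0.0224 by DESeq2). Retn had the smallest p of that list, and DESeq2 called 0.62% of the genes to which it gave an adjusted p. Of 8 gland and epithelium markers 6 were tested and 0 were positive (median -0.65), with Amy1 at -0.69 ± 0.27 (adjusted p = 0.491).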
